A study of Mus musculus with 18 samples.

Results

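Xcr1, Clec9a, Batf3, Cd24a, Flt3, Zbtb46, Dpp4, Cd209a, Clec10a and Siglech are 10 genes used to mark dendritic cells (DCs), though not each of them is particular to DCs. The 10 genes were followed here in macrophages sorted from inflamed mouse lung. These genes were taken by name from the deposited count table, which lists 21254 genes, and all 10 were found in it and had enough reads to be tested. The question was how far populations sorted as macrophages hold DC transcripts, and whether these move with the population or with the loss of ezrin. Ezrin, the product of Ezr, is a protein that links the plasma membrane to the actin cytoskeleton.

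The animals, of the C57BL/6 strain, were 3 to 5 months old. All of them inhaled 1 nebulized dose of lipopolysaccharide (LPS) of Pseudomonas aeruginosa, 12.5 mg in 5 ml over 15 minutes, and were taken 24 h later, so that no untreated lung is among the groups. WT mice carried Ez+/+ with Cx3cr1 Cre and Ezr-KOm mice carried Ez fl/fl with the same Cre, so both genotypes share the Cre allele. Cx3cr1 drives Cre in monocytes and macrophages, and in the study a Cx3cr1 reporter was also expressed, at a low level, in conventional DCs. Every sorted cell was CD45+ CD11b+. Monocyte-derived macrophages (moMs) were Ly6C+ MHC-II-, transitional interstitial macrophages (tnsIMs, written trIM in the labels) were Ly6C+ MHC-II+, and mature interstitial macrophages (matIMs) were Ly6C- MHC-II+. In the study's gating tree these 3 populations come from the CD11c- fraction, and DCs are gated apart as CD11c+ CD24 high CD64 negative cells, whereas the labels name neither CD11c nor CD64 for this sort. Each of the 6 groups holds 3 libraries, and the labels do not say whether the 3 populations of 1 replicate number came from 1 mouse. The p-values therefore measure the spread between these libraries only.

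Conventional DCs (cDCs) arise from a bone marrow precursor under the growth factor Flt3 ligand and take up, carry and present antigen to T cells. The cDC1 lineage cross-presents antigen of dead cells to CD8 T cells, the cDC2 lineage mainly primes CD4 T cells, and plasmacytoid DCs (pDCs) make type I interferon. Monocytes that enter inflamed tissue can take on several DC features as well. In the lung DCs and interstitial macrophages share MHC-II, CD11b and, in part, CD11c, so that these markers alone separate them poorly.

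The 250 bases before a transcription start listed by RefSeq were read on GRCm38.p6. They are shown for 4 of the genes that were highest in matIMs (Zbtb46, Flt3, Dpp4 and Cd209a) and for Xcr1, a cDC1 gene that was not. Whether the listed start is the one used in these cells was not tested. Each runs 5′ to 3′ on the gene's own strand. Capitals mark matches, on either strand, to the PU.1-type motif GGAAGT, the IRF-type motif (GAAA repeated after a gap of 2 bases, each of them free) or the AP-1-type motif TGANTCA; PU.1, IRF and AP-1 factors are transcription factor families known to act in myeloid cells.
Zbtb46, chr2:181424389-181424638, minus strand: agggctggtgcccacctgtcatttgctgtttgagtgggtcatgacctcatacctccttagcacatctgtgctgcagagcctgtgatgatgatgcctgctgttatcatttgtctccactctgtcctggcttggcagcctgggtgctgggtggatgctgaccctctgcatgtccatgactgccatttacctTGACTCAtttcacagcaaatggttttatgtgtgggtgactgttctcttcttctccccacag
Flt3, chr5:147400490-147400739, minus strand: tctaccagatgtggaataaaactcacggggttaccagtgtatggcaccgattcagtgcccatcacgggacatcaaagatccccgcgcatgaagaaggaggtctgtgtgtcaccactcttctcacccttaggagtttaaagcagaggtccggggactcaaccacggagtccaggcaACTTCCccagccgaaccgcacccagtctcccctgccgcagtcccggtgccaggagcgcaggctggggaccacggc
Dpp4, chr2:62412232-62412481, minus strand: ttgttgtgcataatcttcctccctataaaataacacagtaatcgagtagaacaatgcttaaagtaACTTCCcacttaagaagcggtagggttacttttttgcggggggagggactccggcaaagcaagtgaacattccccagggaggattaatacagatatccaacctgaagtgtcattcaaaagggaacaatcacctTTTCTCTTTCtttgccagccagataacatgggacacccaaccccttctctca
Cd209a, chr8:3748985-3749234, minus strand: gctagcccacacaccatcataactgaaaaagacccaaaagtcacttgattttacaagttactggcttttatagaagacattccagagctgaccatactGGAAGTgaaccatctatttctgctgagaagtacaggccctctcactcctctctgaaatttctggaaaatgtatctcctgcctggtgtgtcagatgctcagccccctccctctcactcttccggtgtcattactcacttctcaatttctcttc
Xcr1, chr9:123862030-123862279, minus strand: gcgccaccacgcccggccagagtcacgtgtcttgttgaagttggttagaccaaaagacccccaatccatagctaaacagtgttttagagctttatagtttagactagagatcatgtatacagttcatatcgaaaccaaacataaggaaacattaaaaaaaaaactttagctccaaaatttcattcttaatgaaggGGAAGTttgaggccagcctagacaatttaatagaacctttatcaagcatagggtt
RefSeq promoters were found for 8 of the 10 genes, and Cd24a and Clec10a had no entry. The PU.1-type motif stood in 6 of the 8 windows (Xcr1, Batf3, Flt3, Dpp4, Cd209a and Siglech), against 19.7% of all 32851 promoter windows of this length. The IRF-type motif was found in the Dpp4 window alone and is held by 2.98% of all windows. The AP-1-type motif, which the BATF family of factors also binds, was found in the Zbtb46 window alone and is held by 6.75% of all windows. The Zbtb46 window ends in ctccccacag, the form of the end of an intron. It may therefore lie inside the gene, and its match is not shown to be in a promoter. The Clec9a window held none of the 3. A PU.1-type match is thus present both in genes that rose in matIMs and in Xcr1.

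Library totals ran from 16512783 to 48460995 counts. Ezr, the check of the genotype, was lower in every Ezr-KOm library than in every WT library of the same population. It ranged from 497 to 593 CPM (counts scaled to library size, with TMM factors) in WT moMs against 160 to 282 in Ezr-KOm moMs, and from 611 to 741 in WT matIMs against 93.8 to 167 in Ezr-KOm matIMs. The log2 fold change (log2FC) was -1.20 in moMs, which missed the threshold (edgeR adjusted p = 0.0549), -1.62 in tnsIMs (adjusted p = 0.00365) and -2.29 in matIMs (adjusted p = 7.73e-05). Csf1r, the receptor for the macrophage growth factor, and Fcgr1, which encodes CD64, were present in all 3 populations. Their lowest values were 1334 and 80.8 CPM, both in Ezr-KOm matIMs. Csf1r is also listed below with the growth factor axis of DCs and macrophages. The summed level of 12 macrophage genes was lower in matIMs, at 7300 to 8688 CPM, than in moMs, at 13860 to 16316 CPM.

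Most of the 10 genes, but not all, were higher in matIMs than in moMs. In the fit without a term for the replicate number, 7 of the 10 genes in WT mice rose from moMs to matIMs and none fell (edgeR, adjusted p under 0.05), where 13.4% of all genes tested rose and 11.4% fell. In Ezr-KOm mice 7 rose and none fell, against 12.5% and 10.7% of all genes. The 7 genes were Zbtb46, Flt3, Dpp4, Cd209a, Clec10a, Batf3 and Clec9a in both genotypes. The median log2FC of the 10 genes was 1.86 in WT and 2.14 in Ezr-KOm mice, and that of all genes tested was 0.013 and 0.0067. Summed over the 10 genes, libraries held 215 to 262 CPM in moMs, 228 to 404 in tnsIMs and 1102 to 1998 in matIMs. Cd209a made up 39.9% to 59.8% of that sum in matIMs. In bulk libraries a larger share of cells that express a gene and more RNA per cell cannot be told apart.

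**Figure D1:**
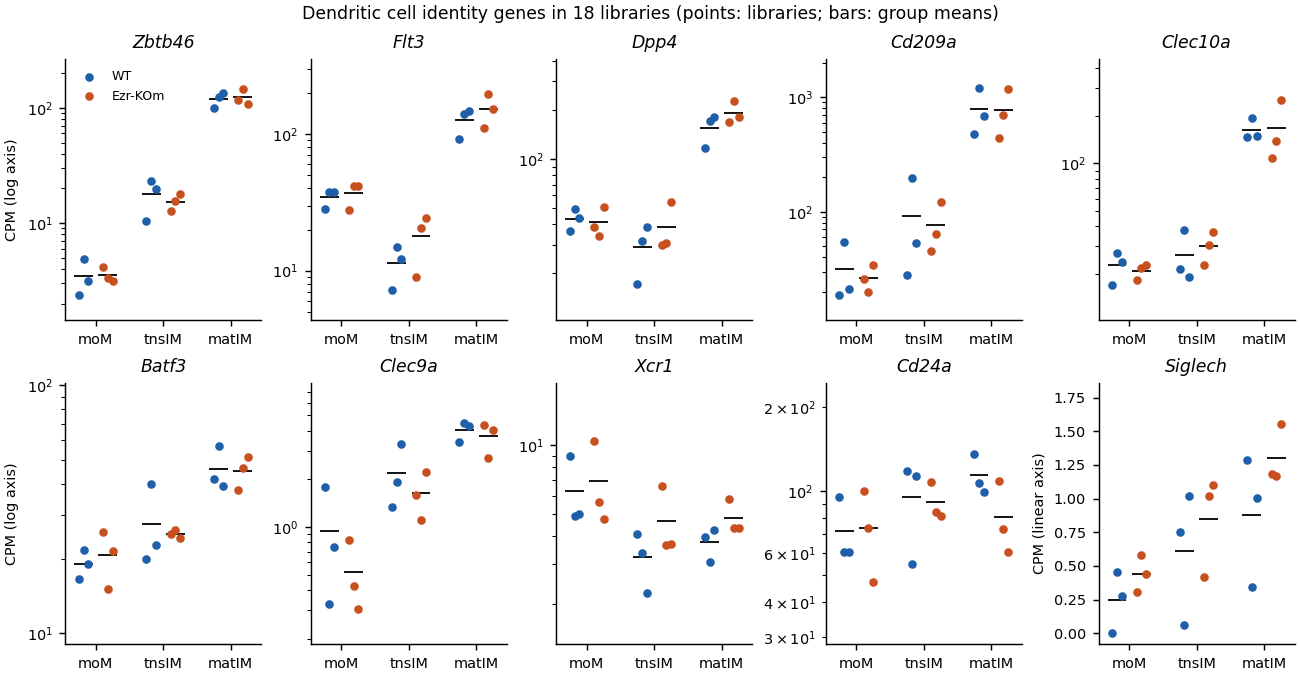
CPM (log axis; linear axis for Siglech) of the 10 genes in the 18 libraries, by population on the horizontal axis and by genotype in colour; points are libraries and bars are group means (n = 3). Zbtb46, Flt3, Dpp4, Cd209a and Clec10a show all 6 matIM libraries above all 12 others, Flt3 dips in tnsIMs, and Xcr1 does not rise.

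All 3 genes shared by both cDC lineages rose from moMs to matIMs in each genotype. Zbtb46 (chromosome 2, 181029555 to 181101219, minus strand, GRCm39) encodes a zinc finger transcription factor that is kept by cDCs and their committed precursors and is absent from most macrophages. In WT moMs it was at 2.39, 4.93 and 3.15 CPM, in WT tnsIMs at 10.4, 23.3 and 19.9 CPM, and in WT matIMs at 100.2, 125 and 134 CPM. In Ezr-KOm moMs it was at 4.13, 3.36 and 3.13 CPM, in tnsIMs at 12.8, 15.5 and 17.8 CPM, and in matIMs at 117, 147 and 108 CPM. The 3 populations did not overlap in either genotype, and tnsIMs lay between the other two. From moMs to matIMs Zbtb46 rose 34.0-fold in WT mice (log2FC 5.09 ± 0.30 SE, adjusted p = 1.07e-09) and 35.0-fold in Ezr-KOm mice (log2FC 5.13 ± 0.30, adjusted p = 8.78e-10). It was also the gene of the 10 that had risen already in tnsIMs in both genotypes, with a log2FC over moMs of 2.34 ± 0.28 in WT (adjusted p = 1.45e-05) and 2.12 ± 0.28 in Ezr-KOm mice (adjusted p = 5.47e-05).

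Flt3 (chromosome 5, 147267551 to 147337299, minus strand) encodes the receptor tyrosine kinase for Flt3 ligand, on which cDCs and pDCs depend. It took another course, lowest in the middle population. In WT mice it was at 28.4, 37.7 and 37.8 CPM in moMs, at 7.22, 14.9 and 12.1 CPM in tnsIMs and at 92.0, 141 and 147 CPM in matIMs. In Ezr-KOm mice it was at 27.7, 41.8 and 41.4 CPM in moMs, at 9.02, 20.5 and 24.2 CPM in tnsIMs and at 111, 197 and 153 CPM in matIMs. Every tnsIM library was below every moM library of its genotype, and every matIM library was above both. Flt3 fell by 1.61 on the log2 scale from moMs to tnsIMs in WT mice (adjusted p = 0.00159) and by 1.04 in Ezr-KOm mice (adjusted p = 0.0333). The second call was lost without moM Ezr-KOm replicate 2 or 3 or tnsIM Ezr-KOm replicate 1 or 2, where the log2FC lay between -1.15 and -0.73, with Ezr-KOm libraries fitted alone (adjusted p = 0.0518) and with library totals as the scale (adjusted p = 0.0594). From tnsIMs to matIMs Flt3 rose 11.2-fold in WT mice and 8.55-fold in Ezr-KOm mice (adjusted p = 1.01e-06 and 2.96e-06), the largest rise of the 10 genes at that step in WT mice.

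Dpp4 (chromosome 2, 62160417 to 62242575, minus strand) encodes CD26, a surface peptidase used to mark cDCs, above all cDC1. In WT mice it was at 36.6, 49.6 and 43.6 CPM in moMs, at 17.2, 31.5 and 38.5 CPM in tnsIMs and at 117, 171 and 181 CPM in matIMs. In Ezr-KOm mice it was at 38.4, 33.9 and 51.1 CPM in moMs, at 29.8, 30.8 and 54.4 CPM in tnsIMs and at 169, 228 and 181 CPM in matIMs. moMs and tnsIMs overlapped in both genotypes, and matIMs stood above both without overlap. The rise from moMs to matIMs was 3.61-fold in WT mice (log2FC 1.85 ± 0.28, adjusted p = 6.68e-05) and 4.69-fold in Ezr-KOm mice (log2FC 2.23 ± 0.28, adjusted p = 9.83e-06). Between moMs and tnsIMs the log2FC was -0.58 with a 95% interval of -1.15 to 0.00 in WT mice (adjusted p = 0.148) and -0.10 in Ezr-KOm mice (adjusted p = 0.861). With a term for the replicate number in the edgeR fit, the WT difference was called (-0.63, adjusted p = 0.0259, and 0.0190 by mouse).

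Both C-type lectins linked to cDC2 and monocyte-derived DCs rose from moMs to matIMs in each genotype. Cd209a (chromosome 8, 3793397 to 3798984, minus strand) encodes a lectin of the DC-SIGN family that is used to mark monocyte-derived DCs and part of cDC2. In WT mice it was at 18.8, 54.6 and 21.4 CPM in moMs, at 28.2, 196 and 53.1 CPM in tnsIMs and at 476, 1193 and 690 CPM in matIMs. In Ezr-KOm mice it was at 25.6, 19.7 and 34.0 CPM in moMs, at 45.5, 64.3 and 122 CPM in tnsIMs and at 439, 696 and 1182 CPM in matIMs. It spread widely within groups, with replicate 2 the highest WT library and replicate 3 the highest Ezr-KOm library of each population, but no matIM library overlapped another population. From moMs to matIMs it rose 24.9-fold in WT mice (log2FC 4.64 ± 0.67, adjusted p = 4.18e-05) and 29.2-fold in Ezr-KOm mice (log2FC 4.87 ± 0.68, adjusted p = 2.83e-05). Without moM WT replicate 2 the WT log2FC was 5.29. The step from moMs to tnsIMs, with a log2FC of 1.54 in WT mice and 1.55 in Ezr-KOm mice, was not called (adjusted p = 0.0716 and 0.0944). The WT value depended on single libraries: without tnsIM WT replicate 2 it was 0.38 (adjusted p = 0.687), whereas it was called without moM WT replicate 2 (2.20, adjusted p = 0.0328), tnsIM WT replicate 1 (1.98, adjusted p = 0.0219) or tnsIM WT replicate 3 (1.82, adjusted p = 0.0461). The Ezr-KOm value was called without tnsIM WT replicate 2 (1.57, adjusted p = 0.0292) and with Ezr-KOm libraries fitted alone (adjusted p = 0.0221).

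Clec10a (chromosome 11, 70047023 to 70061660, plus strand) encodes the galactose-binding lectin MGL1, which is found on macrophages as well as on DCs. In WT mice it was at 17.0, 27.3 and 24.0 CPM in moMs, at 21.7, 38.0 and 19.0 CPM in tnsIMs and at 146, 192 and 149 CPM in matIMs. In Ezr-KOm mice it was at 18.4, 21.9 and 22.7 CPM in moMs, at 22.8, 30.7 and 36.7 CPM in tnsIMs and at 107, 139 and 253 CPM in matIMs. The matIM libraries stood above all others, and WT moMs and tnsIMs overlapped. Clec10a rose 7.13-fold from moMs to matIMs in WT mice (adjusted p = 1.44e-06) and 7.91-fold in Ezr-KOm mice (adjusted p = 8.33e-07). Its transcript shares 837 bases at 93.7% identity with that of Mgl2, the neighbouring lectin gene, which rose with a log2FC of 5.74 in WT mice, so the split of reads between the pair is uncertain.

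Of the 4 genes linked to the cDC1 lineage, Batf3 and Clec9a rose from moMs to matIMs, and Xcr1 and Cd24a were not called in the fit without a term for the replicate number. Batf3 (chromosome 1, 190830044 to 190841142, plus strand), an AP-1 family transcription factor that cDC1 need to develop, was at 15.1 to 25.5 CPM over the 6 moM libraries, at 19.98 to 40.1 in tnsIMs and at 37.9 to 57.0 in matIMs. It rose 2.41-fold from moMs to matIMs in WT mice (adjusted p = 0.000600) and 2.19-fold in Ezr-KOm mice (adjusted p = 0.00164). Clec9a (chromosome 6, 129385825 to 129401726, plus strand), a receptor by which cDC1 sense actin of dead cells, was at 0.309 to 1.76 CPM in moMs, at 1.10 to 3.29 in tnsIMs and at 2.72 to 4.44 in matIMs. All 6 matIM libraries were above all 6 moM libraries, and the rise was 4.38-fold in WT mice (log2FC 2.13, adjusted p = 0.00336) and 7.11-fold in Ezr-KOm mice (log2FC 2.83, adjusted p = 0.000461). Without moM WT replicate 1 the WT log2FC was 2.89. It rested on 7 to 31 reads per moM library and 77 to 122 per matIM library. The exons of Clec9a share 2538 bases with those of Clec1a on the other strand. The library kit keeps no strand, so reads from that stretch cannot be assigned to 1 of the pair. The same limit holds for the stretches that other genes share with opposite-strand genes, 469 bases of Batf3 with Gm70128, 619 of Zbtb46 with Gm74777, 301 of Flt3 with Gm26597, 232 of Dpp4 with Gm13561 and 110 of Cd24a with Mtres1.

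Xcr1 (chromosome 9, 123681380 to 123691094, minus strand) encodes the chemokine receptor by which cDC1 find XCL1, and it is among the most selective cDC1 genes. It was at 8.94, 4.89 and 4.96 CPM in WT moMs, at 4.09, 3.36 and 2.23 CPM in WT tnsIMs and at 3.95, 3.08 and 4.25 CPM in WT matIMs. In Ezr-KOm mice it was at 10.4, 5.63 and 4.76 CPM in moMs, at 6.61, 3.65 and 3.69 CPM in tnsIMs and at 5.77, 4.33 and 4.32 CPM in matIMs. In WT mice matIM libraries were below all moM libraries, and in Ezr-KOm mice the populations overlapped. The log2FC from moMs to matIMs was -0.73 with a 95% interval of -1.45 to -0.01 in WT mice (adjusted p = 0.136) and -0.53 with an interval of -1.23 to 0.18 in Ezr-KOm mice (adjusted p = 0.302). Exons of Xcr1 share 1071 bases with the opposite-strand lncRNA Gm57030, and reads from that stretch cannot be assigned to 1 of the pair here.

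Cd24a (chromosome 10, 43454280 to 43460261, plus strand) encodes the heat-stable antigen CD24, which is high on cDC1 but also on granulocytes and B cells, and the study's gating used it to remove granulocytes and DCs. It was at 95.3, 60.6 and 60.4 CPM in WT moMs and at 136, 106 and 99.5 CPM in WT matIMs, which did not overlap, with a log2FC of 0.66 that was not called (adjusted p = 0.119). In Ezr-KOm mice the range was 47.3 to 99.8 CPM in moMs and 60.4 to 109 in matIMs, with a log2FC of 0.13 (adjusted p = 0.813). Siglech (chromosome 7, 55417926 to 55428673, plus strand), a receptor of the sialic acid-binding family that marks pDCs, had 0 to 51 reads per library. It was at most 0.578 CPM in moMs, 1.10 in tnsIMs and 1.55 in matIMs. Its log2FC from moMs to matIMs was 1.76 with a 95% interval of 0.12 to 3.39 in WT mice (adjusted p = 0.113) and 1.54 in Ezr-KOm mice (adjusted p = 0.144), and the 0 reads in WT moM replicate 1 allow up to 3 reads there, or 0.163 CPM of the library total.

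**Figure D2:**
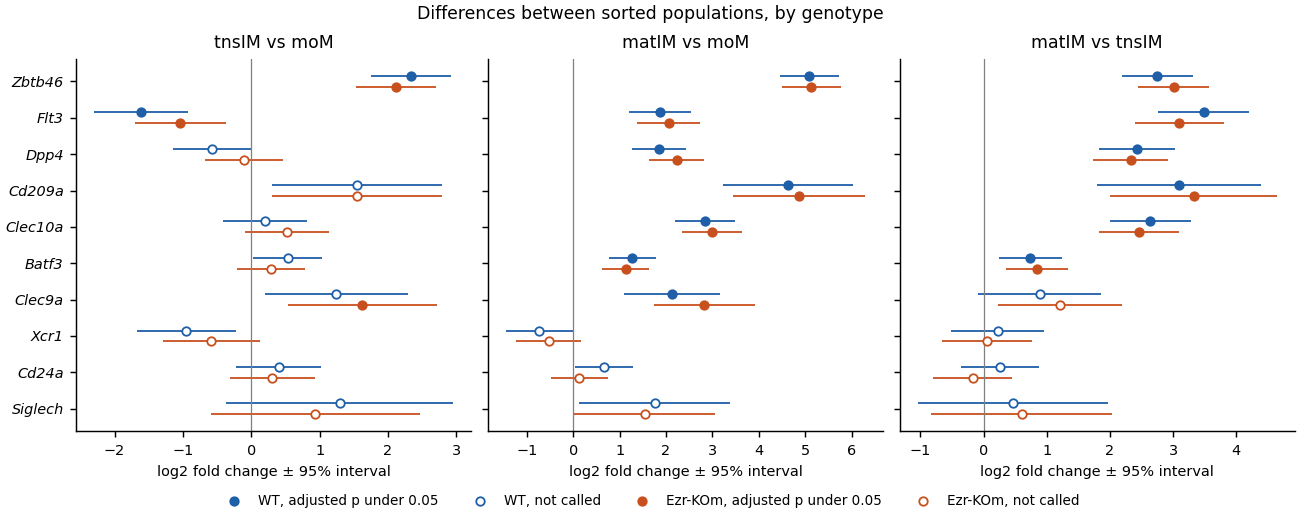
log2FC with 95% intervals (horizontal axis) of the 10 genes between the sorted populations, in WT (blue) and Ezr-KOm (orange) mice; filled points have an edgeR adjusted p under 0.05. In both genotypes Zbtb46, Flt3, Dpp4, Cd209a, Clec10a, Batf3 and Clec9a are filled for matIMs against moMs, and Flt3 is the one gene filled below 0 for tnsIMs against moMs.

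Taken as 2 steps, the counts were as follows. From moMs to tnsIMs 1 of the 10 genes rose in WT mice (Zbtb46) and 1 fell (Flt3), where 13% of all genes rose and 8.61% fell. In Ezr-KOm mice 2 rose (Zbtb46 and Clec9a) and 1 fell (Flt3), against 9.23% and 5.04% of all genes. Clec9a in that step had a log2FC of 1.62 (adjusted p = 0.0419) and lost its call in 7 of the settings that left out 1 library, namely moM Ezr-KOm replicate 2 or 3, tnsIM Ezr-KOm replicate 1 or 3, matIM WT replicate 2 or 3 and matIM Ezr-KOm replicate 3, with an adjusted p of up to 0.167. From tnsIMs to matIMs 6 of the 10 rose in WT mice and none fell, against 8.32% and 10.2% of all genes, and 6 rose and none fell in Ezr-KOm mice, against 8.37% and 9.85%. They were Zbtb46, Flt3, Dpp4, Cd209a, Clec10a and Batf3 in both genotypes. Batf3 was the weakest of them, with a log2FC of 0.74 in WT mice (adjusted p = 0.0346) and 0.85 in Ezr-KOm mice (adjusted p = 0.0159). Its WT call was lost without tnsIM WT replicate 1 or 3, matIM WT replicate 2 or moM Ezr-KOm replicate 3, where the adjusted p rose to at most 0.185, with WT libraries fitted alone (0.0610), with upper-quartile factors (0.0562) and with at least 10 counts asked of every library (0.0526). The Ezr-KOm call was lost without matIM Ezr-KOm replicate 3 (adjusted p = 0.0678).

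Per kilobase of exon, Cd209a led in WT matIMs at 497 ± 233 CPM per kb (SD, n = 3), which placed it at the 99.7th percentile of all genes tested. Clec10a followed at 56.1 ± 8.9 and Cd24a at 44.1 ± 7.4, and the SDs of the pair overlapped. Next came Batf3 at 28.8 ± 6.0, Flt3 at 19.5 ± 4.7 and Dpp4 at 17.8 ± 3.9, of which Batf3 overlapped with Flt3 and Flt3 with Dpp4. Zbtb46 was at 7.34 ± 1.09 per kb of all its exons and at 17.8 per kb of its longest transcript, which is below Dpp4 by either length (26.6 by the longest transcript). The lengths come from a later annotation than the counts. In it Zbtb46 runs from 181012111 to 181104879, beyond the counted gene on both sides. Its level per kb, in matIMs and in moMs, and its rank may therefore be understated. Clec9a at 1.23 ± 0.17, Xcr1 at 0.844 ± 0.137 and Siglech at 0.179 ± 0.099 were the lowest. In WT moMs the order was different, with Cd24a at 27.9 ± 7.8 above Cd209a at 19.9 ± 12.6, which overlap in their spread, and Zbtb46 at 0.214 ± 0.080 beside Clec9a at 0.288 ± 0.224. On the same scale WT matIMs held 200.1 CPM per kb of Csf1r and 32.6 of Fcgr1.

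**Figure D3:**
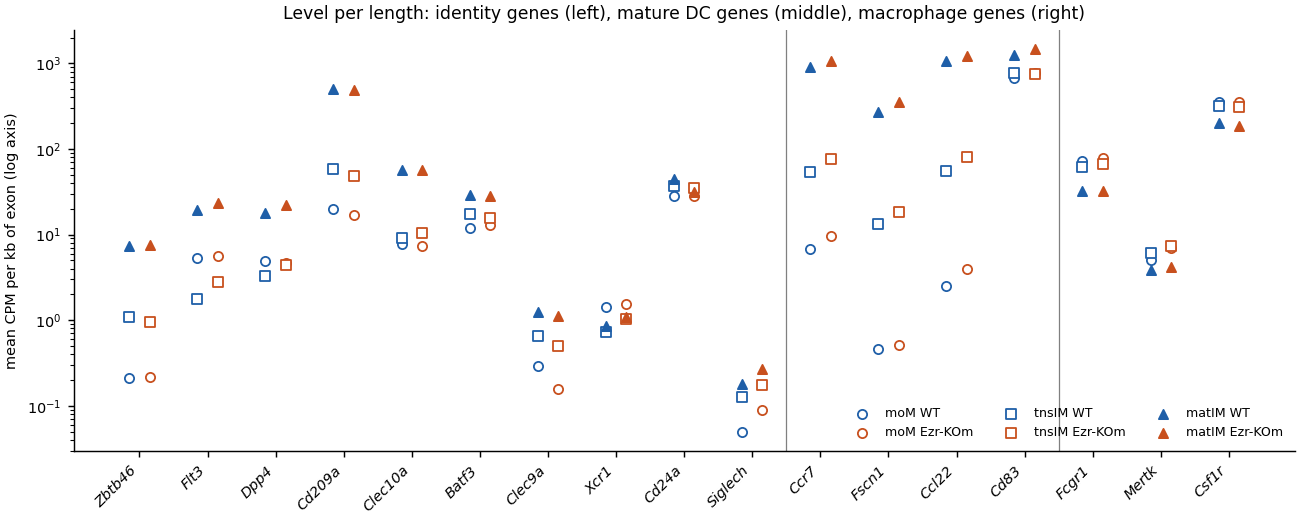
Mean CPM per kb of exon (log axis) in the 6 groups for the 10 genes (left), 4 mature DC genes (middle) and 3 macrophage genes (right); triangles are matIMs, squares tnsIMs and circles moMs, and colours are genotypes. In WT matIMs Cd209a, at 497, stands above Csf1r, at 200.1, while Clec9a, Xcr1 and Siglech lie near or below 1.

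No genotype difference was called for any of the 10 genes. With edgeR 0 of 10 had an adjusted p under 0.05 in each population, where 0.171% of all genes did in moMs, 0.164% in tnsIMs and 0.152% in matIMs. None of the 10 passed the rule the study used either (unadjusted p under 0.05 with an absolute log2FC above 0.75), where 2.51%, 1.83% and 2.4% of all genes did, and 0 of the 30 tests had an unadjusted p under 0.05. DESeq2 called 0 as well, with an unadjusted p under 0.05 for 0 of the 10 in moMs, for 1 in tnsIMs and for 0 in matIMs. The log2FC of Ezr-KOm over WT ranged from -0.82 (Clec9a in moMs) to 0.78 (Siglech in moMs). Leaving out Clec9a and Siglech, the largest difference was that of Flt3 in tnsIMs, with a log2FC of 0.66 and a 95% interval of -0.02 to 1.34. In matIMs, Xcr1 was higher in all 3 Ezr-KOm libraries than in all 3 WT libraries, with a log2FC of 0.36 and an interval of -0.36 to 1.07, and Cd24a had a log2FC of -0.49 and an interval of -1.12 to 0.13. For Zbtb46 in matIMs the interval was -0.47 to 0.56, or 0.721 to 1.48 times the WT level, and for Cd209a it was -1.23 to 1.17, or 0.427 to 2.26 times. The genotype effect did not differ in a called way between populations for any of the 10 genes, and 0%, 0% and 0% of all genes were called in these 3 tests (tnsIMs against moMs, matIMs against moMs and matIMs against tnsIMs), with 0 of the 10 genes at an unadjusted p under 0.05 in each.

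**Figure D4:**
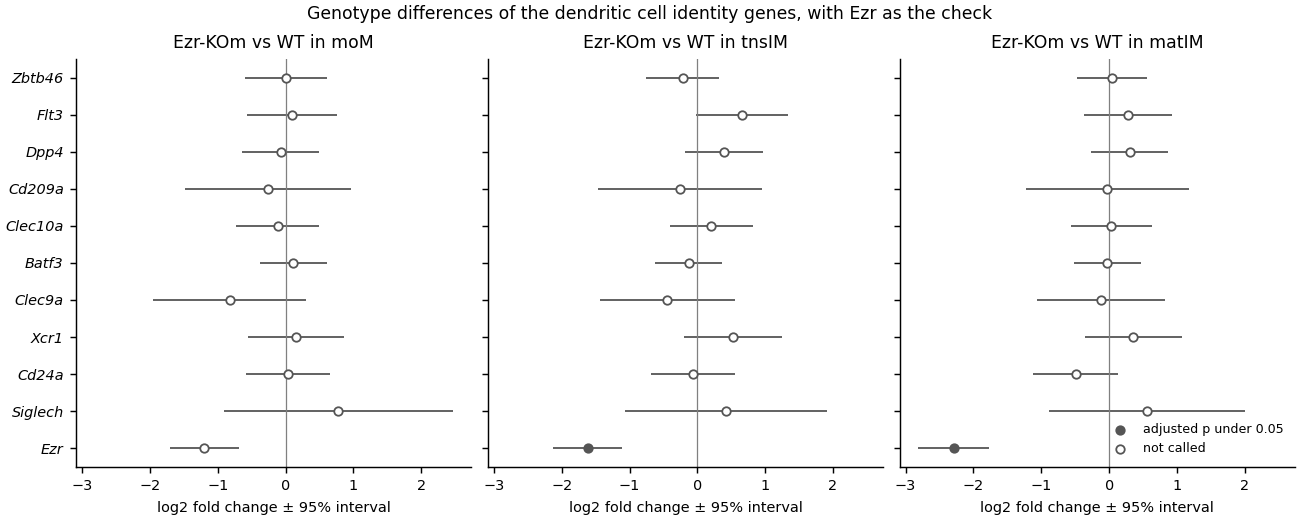
log2FC of Ezr-KOm over WT with 95% intervals (horizontal axis) for the 10 genes and for Ezr, in each population; filled points have an edgeR adjusted p under 0.05. All 10 genes are open in all 3 panels, and Ezr lies at -1.20, -1.62 and -2.29.

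Other genes of the DC programme, from lists compiled for this comparison, are given next for the step from moMs to matIMs, in which 13.4% of all genes rose and 11.4% fell in WT mice and 12.5% rose and 10.7% fell in Ezr-KOm mice. Of 16 further genes shared by cDCs, 12 rose and 0 fell from moMs to matIMs in WT mice (median log2FC 1.49), and 11 rose and 0 fell in Ezr-KOm mice (median 2.11). P2ry10, a lysophospholipid receptor gene, went from 2.91 to 3.81 CPM in WT moMs to 78.3 to 103 CPM in WT matIMs. Kmo, an enzyme of tryptophan breakdown, went from 12.01 to 14.01 CPM to 174 to 197 CPM. Klri1, a lectin-like receptor gene, was at 0.0829 to 0.342 CPM in WT moMs and 9.44 to 11.2 CPM in matIMs, and H2-Eb2, an MHC-II chain gene, at 0.114 to 0.290 and 6.79 to 8.61 CPM. No moM library overlapped a matIM library in any of these 4 genes. The sort itself divided moMs from matIMs by MHC-II, so the rise of H2-Eb2 is not independent of the gate.

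Lineage genes of cDC1, cDC2 and pDC split within each list. Of 10 further cDC1 genes, 5 rose and 0 fell in WT matIMs over moMs, and 6 rose and 0 fell in Ezr-KOm mice. Cadm1, an adhesion molecule, rose from 2.20 to 3.07 CPM to 17.8 to 25.4 CPM, and Itgae, which encodes CD103 of lung cDC1, from 0.236 to 0.497 CPM to 6.07 to 10.6 CPM. Snx22 and Gcsam had at most 3 reads in every moM library and were at 1.45 to 2.20 and 1.95 to 2.53 CPM in WT matIMs. Of 10 further cDC2 genes, 4 rose and 4 fell in WT mice (median log2FC -0.39), and 4 rose and 3 fell in Ezr-KOm mice (median -0.08). In WT mice Mgl2, Relb and Irf4, the transcription factor of the cDC2 lineage, rose with a log2FC of 5.74, 1.46 and 2.85, and Clec12a, an inhibitory lectin, fell by 0.95 on the log2 scale. Of 10 further pDC genes tested, 4 rose and 0 fell in each genotype (median log2FC 0.62 in WT and 0.39 in Ezr-KOm mice). Those 4 were Spib, Ly6d, Cd300c and Pacsin1, and Spib and Ly6d are known in the B cell lineage as well. Tcf4, the factor that defines pDCs, was not called in either genotype. The summed levels of these lists overlapped between moMs and matIMs, with medians of 1287 and 1357 CPM for the cDC1 genes, 1625 and 1673 for the cDC2 genes and 795 and 731 for the pDC genes.

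Genes of mature, migratory DCs rose beside the 10. Of 11 such genes 10 rose and 0 fell from moMs to matIMs in each genotype (median log2FC 2.40 in WT and 2.48 in Ezr-KOm mice). As with the 10, not each of these genes is particular to DCs, and every library comes from an LPS-treated mouse. Ccr7, the receptor that guides DCs to lymph nodes, was at 9.76 to 16.3 CPM in WT moMs, at 94.5 to 128 in tnsIMs and at 1481 to 2019 in matIMs. Fscn1, the actin-bundling protein fascin, was at 1.02 to 1.81 CPM in WT moMs, at 33.0 to 47.5 in tnsIMs and at 614 to 1020 in matIMs. Ccl22, a chemokine for regulatory T cells, was at 5.69 to 6.38 CPM in WT moMs and at 2202 to 3092 in matIMs. The 3 populations did not overlap in these 3 genes. Cacnb3, a calcium channel subunit gene used to mark mature DCs, was at 0.207 to 0.354 CPM in WT moMs and 140 to 282 CPM in matIMs. The 6 paralogues of Cd209a in the table all rose from moMs to matIMs in each genotype, among them Cd209c, from 0.114 to 0.663 CPM in WT moMs to 16.4 to 31.5 CPM in WT matIMs.

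Macrophage genes were still present in matIMs. Of 12 macrophage genes 4 rose and 5 fell in WT mice and 4 rose and 7 fell in Ezr-KOm mice. Their sum was 13860 to 16316 CPM in moMs and 7300 to 8688 CPM in matIMs. None of the 12 was at or under 3 reads throughout, which in matIMs held for every other list as well. All 7 monocyte genes fell in both genotypes. Of 5 genes of the growth factor axis of DCs and macrophages (Flt3l, Csf1r, Csf2ra, Csf2rb and Il4ra), 0 rose and 2 fell in each genotype. Of 7 genes of alveolar macrophages 6 rose and 0 fell in WT mice and 5 rose and 0 fell in Ezr-KOm mice, with a summed level of 360 to 468 CPM in moMs and 548 to 757 CPM in matIMs. Itgax, which encodes CD11c, was at 256 to 291 CPM in WT moMs and at 613 to 714 CPM in WT matIMs. In the study's gating tree these cells lie in the CD11c- fraction. That gate reads surface protein and these values are RNA, so they do not show whether CD11c+ cells were sorted.

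**Figure D5:**
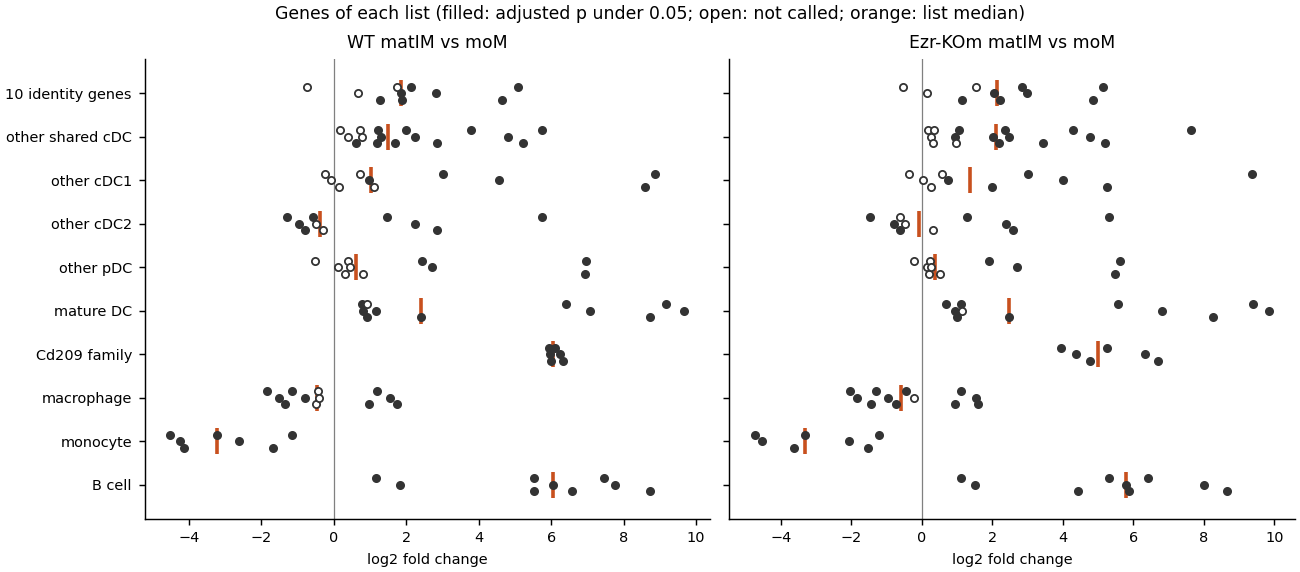
log2FC of matIMs over moMs (horizontal axis) for each gene of 10 lists, in WT (left) and Ezr-KOm (right) mice; filled points have an edgeR adjusted p under 0.05 and orange bars are list medians. The medians of the 10 identity genes are 1.86 and 2.14, those of the mature DC genes 2.40 and 2.48, and those of the monocyte genes -3.23 and -3.32.

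Markers of other cells are given against the same shares of all genes, 13.4% higher and 11.4% lower in WT and 12.5% and 10.7% in Ezr-KOm matIMs over moMs. B cell genes rose from moMs to matIMs beside the DC genes, 9 of 9 in each genotype, and their sum was 90.3 to 178 CPM in moMs, 231 to 403 in tnsIMs and 1003 to 1802 in matIMs. Cd79a, a chain of the B cell receptor complex, was at 0.0787 to 0.399 CPM in WT moMs and 46.4 to 72.5 CPM in WT matIMs, and Pax5, which defines B cells, was at or under 3 reads in every moM library. Btla and Bcl11a of the shared cDC list and Cd24a of the 10 are examples of genes that B cells express as well. The other genes of the DC lists were not sorted by this, and the part of B cell RNA in the values of any list was not tested. T and NK cell genes summed to 39.4 to 62.1 CPM in moMs and 42.5 to 74.5 in matIMs, with 2 of 10 higher and 1 lower in matIMs in each genotype, a share near that of all genes. Neutrophil genes summed to 302 to 518 CPM in moMs and 105 to 303 in matIMs, with 3 of 8 higher and 1 lower in WT mice and 4 of 8 higher and 1 lower in Ezr-KOm mice, and none at or under 3 reads throughout. The eosinophil genes in the table summed to at most 3.67 CPM. Epithelial genes, 884 to 2112 CPM in tnsIMs against 259 to 395 in matIMs and 75.5 to 165 in moMs, endothelial genes, 192 to 415 CPM in tnsIMs, and fibroblast genes, 79.3 to 145 CPM in tnsIMs, were highest in the population in which Flt3 was lowest, and their part in the tnsIM values was not tested.

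Across the 18 libraries, likeness of pattern was measured as Pearson's r of log2 CPM, as a description only, since populations set most of it and libraries share depth and sort. Zbtb46 was most like Gnb4 (r = 0.993), Cyp2s1 (0.989) and H2-DMb2 (0.988). Flt3 was most like Btla (0.974), Lsp1 (0.960) and Tmem131l (0.957). For Dpp4 they were Myo1g (0.985), Birc2 (0.983) and Tbc1d8 (0.978), for Cd209a its paralogue Cd209c (0.981), Plek2 (0.973) and Ust (0.973), and for Clec10a Olfm1 (0.981), Kmo (0.977) and Rtn1 (0.972). For Batf3 the nearest gene was Cd209a (0.954), and for Clec9a it was Ptpn3 (0.955). Xcr1 and Cd24a had no such close partner, with highest values of 0.884 (Frmd8os) and 0.851 (Akap5). For Siglech, at its few reads, the highest was 0.899 (Rnf225).

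Within groups, after the group means were taken out, some of the 10 genes moved together over the 18 libraries and some moved against each other. The highest values of r were 0.826 for Cd209a and Clec10a, 0.788 for Batf3 and Cd209a and 0.734 for Flt3 and Dpp4. The lowest were -0.823 for Cd24a and Clec10a, -0.772 for Cd24a and Cd209a and -0.736 for Xcr1 and Flt3. Replicate 1 was the lowest library for Flt3 in 6 of 6 groups and for Dpp4, Cd209a and Clec10a in 5 of 6, and it was the highest for Cd24a in 6 of 6 and for Xcr1 in 5 of 6. The deviations of Cd209a were most like those of Lss (r = 0.983), Pcyt2 (0.978) and Sqle (0.948), which encode lanosterol synthase, an enzyme of phosphatidylethanolamine synthesis and squalene epoxidase. Those of Cd24a were most like Zfand2a (0.940), Azin1 (0.939) and Gm14636 (0.936), and those of Xcr1 most like Ppp1r15a (0.925), Mafk (0.904) and 9530085L11Rik (0.903). The deviations of Flt3 were most like Sun1 (0.968), Gramd4 (0.942) and Ppm1f (0.935).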

How the data were processed

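RNA of 18 sorted populations was amplified with SMART-Seq v4, made into Nextera XT libraries and sequenced as read pairs. The authors aligned the reads with STAR 2.7.9a to GRCm39 and deposited counts per gene, raw and not normalized. The strand column they used is not given in the sources used here, and the kit keeps no strand. Whether reads from stretches shared by genes on opposite strands were counted or dropped is therefore not known. Their table lists 21254 genes, and each of its columns belongs to a labelled sample. Library totals ran from 16512783 to 48460995 counts (median 24086623).

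From these counts, edgeR 4.0.16 (R 4.3.3) was run with TMM factors, a filter on low counts by group (15811 genes left) and quasi-likelihood tests in 1 model of the 6 groups. A call is a Benjamini-Hochberg adjusted p under 0.05 over all genes tested, two-sided. SE and 95% intervals come from the same fit. Levels are CPM on the TMM scale, divided by the length of the exon union for comparisons between genes. Exon lengths and overlaps between genes were read from a later Gencode release than the one the counts were made on. Alternatives were DESeq2 1.42.0, other scaling factors and filters, robust fitting, fits of 1 genotype or population, terms for the replicate number, and each library left out. The script was tested on simulated data. Stretches shared between transcripts were searched at 90% identity over at least 100 bases, by which Xcr1 and Zbtb46 share a stretch with 1020 and 1464 other genes, so that reads from those stretches are uncertain.

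The 10 genes, the lists, the motifs and the tests were chosen with earlier results of these data known. All 10 genes are given whether or not they changed. From each other list up to 4 called genes with the smallest p are named, besides the markers Csf1r, Fcgr1, Itgax, Tcf4 and Pax5. The level plot also draws Cd83 and Mertk. For likeness the 3 genes with the highest r were taken, with a prior count of 2. Between genotypes, libraries of the same population and number deviated together from their group means (r from 0.102 to 0.316 over 9 pairs), and the labels do not say why. Replicates differed by more than sampling noise, and none was merged. 1 gene of the macrophage list is not reported here by name.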

Additional observations from a re-analysis of the deposited data

How the results depend on the processing

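Depth limits Clec9a and Siglech above all, at 7 to 31 and 0 to 15 reads per moM library, so small changes in them were not detectable. With 3 libraries a group, genotype intervals of the 10 genes stay wide. Beyond that, 0 of the 30 genotype effects and 0 of the 30 differences between them were called in any of 26 settings, although 19 and 21 of them changed sign in at least 1 setting. Of the 60 population differences 6 changed sign in at least 1 setting, none of them called. Leaving out 1 library at a time kept the number of genes called between matIMs and moMs at 7 in each genotype, but other settings moved it. In WT mice it was 9 (8 up and 1 down) with either replicate block, which called Cd24a higher (log2FC 0.68, adjusted p = 0.0157, and 0.00739 by mouse) and Xcr1 lower (-0.66, adjusted p = 0.0362, and -0.68, 0.0387 by mouse). The Ezr-KOm count was 8 with the genotype fitted alone, which called Siglech (adjusted p = 0.0397). With at least 10 counts in every library 8 of the 10 genes were tested and 6 called in each genotype. The share of all genes called under each of these settings is not set beside the counts, here or in the next paragraph. A gain in calls may therefore hold for all genes and is not read as a result about the 10.

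Of the 10 genes, 2 were called between tnsIMs and moMs in WT mice in the main fit, where 13% of all genes rose and 8.61% fell. DESeq2 called 4 of the 10, the replicate block 6 and the replicate block by mouse 5. The correlation of same-numbered populations ran from 0.0905 to 0.397, not over 0.1 in every pair, against at most 0.0316 for different numbers, and the labels do not pair them. Between tnsIMs and moMs in WT mice the block called Cd209a (1.40, adjusted p = 0.0298, and 0.000711 by mouse) and Clec9a (1.30, adjusted p = 0.0448) higher and Dpp4 (-0.63, adjusted p = 0.0259, and 0.0190 by mouse) and Xcr1 (-0.94, adjusted p = 0.00609, and 0.00755 by mouse) lower. For Ezr-KOm mice the block called Cd209a higher in that step (1.42, adjusted p = 0.0360, and 0.000418 by mouse) and Clec9a higher in matIMs than in tnsIMs (1.21, adjusted p = 0.0475). The block called 0 genotype effects among the 10 genes. In Ezr-KOm mice 3 were called in that step, and leaving out 1 library gave 1 to 4, with 1 without moM Ezr-KOm replicate 2 or 3 or tnsIM Ezr-KOm replicate 1. The cause was not tested.

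Several genotype effects changed sign. For Ezr-KOm over WT the log2FC of Zbtb46 in moMs was -0.0056 with DESeq2, -0.0037 with library totals, -0.0047 with no filter and -0.0011 with at least 10 counts in every library. In matIMs Cd209a was at 1.1e-05 with upper-quartile factors, 0.0046 with library totals and 0.016 with the replicate block, Batf3 at 0.0013 with library totals and Clec10a at -0.0043 with the replicate block. With 1 library left out, the genotype effect in moMs ran from -0.0303 to 0.26 for Flt3, -0.19 to 0.34 for Zbtb46, -0.52 to 0.40 for Cd209a, -0.25 to 0.28 for Cd24a, -0.28 to 0.0337 for Clec10a, -0.26 to 0.0469 for Dpp4, -0.0653 to 0.30 for Batf3 and -0.26 to 0.49 for Xcr1. Ezr-KOm tnsIM against moM ran from -0.44 to 0.0927 for Dpp4. Ezr-KOm matIM against moM ran from -0.14 to 0.42 for Cd24a. The genotype effect in tnsIMs ran from -0.34 to 0.11 for Cd24a, -0.32 to 0.24 for Batf3, -0.75 to 0.92 for Cd209a, -0.0605 to 0.96 for Siglech, -0.49 to 0.0244 for Zbtb46 and -0.72 to 0.00238 for Clec9a. WT tnsIM against moM ran from -0.13 to 0.38 for Clec10a. WT matIM against tnsIM ran from -0.0505 to 0.44 for Cd24a and -0.037 to 1.01 for Siglech. Ezr-KOm matIM against tnsIM ran from -0.098 to 0.39 for Xcr1. The genotype effect in matIMs ran from -0.40 to 0.27 for Clec10a, -0.0963 to 0.14 for Zbtb46, -0.13 to 0.16 for Batf3, -0.47 to 0.41 for Cd209a and -0.26 to 0.0601 for Clec9a. Library totals alone put the median of all genes at 0.132 for matIMs against moMs in Ezr-KOm mice, where TMM gave 0.0067.

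Over all genes, asking at least 10 counts in every library lowered the calls from 2926 to 1760 for WT matIMs against tnsIMs, from 2257 to 1439 for Ezr-KOm tnsIMs against moMs (3403 with the replicate block by mouse and 1416 without moM Ezr-KOm replicate 3) and from 2881 to 1837 for Ezr-KOm matIMs against tnsIMs. Genotype calls over all genes were 27 in moMs (55 with DESeq2, 42 with the replicate block), 26 in tnsIMs (55 with DESeq2, 7 with the population fitted alone, and 14, 15 and 17 without tnsIM WT replicate 1, tnsIM Ezr-KOm replicate 1 or tnsIM Ezr-KOm replicate 3) and 24 in matIMs (52 with DESeq2, 38 with the replicate block, 13 with at least 10 counts, and 15 and 14 without matIM WT replicate 3 or matIM Ezr-KOm replicate 3).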
